A study of Mus musculus with 9 samples.

Results

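Motile cilia are the beating cell projections that ependymal cells extend into the cerebrospinal fluid of the central canal and ventricles. Each is built on an axoneme, a ring of doublet microtubules around a central pair. Rows of outer and inner dynein arms slide the doublets past each other, and radial spokes, the nexin-dynein regulatory complex and the central apparatus control that sliding. The transcription factors FOXJ1 and RFX switch on the genes that encode these parts. A list of 38 motile cilia genes was followed here in spinal cord RNA. It held 11 axonemal dynein heavy chains, whose transcripts are very long, 26 other parts or cilia-linked genes, and Foxj1. Members were required to have at least 10 counts in at least 3 libraries. All 38 were found in the deposited count table, and 37 met this rule, out of 16817 such genes in the series. The same 37 passed the filter used for testing, among 16749 genes. Spag16, a central apparatus gene, did not pass, with 76 counts over all libraries.

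The cords came from C57BL/6 mice in 3 groups of 3 biological replicates. One group was Control. Another had experimental autoimmune encephalomyelitis, abbreviated EAE, in which the immune system attacks the myelin of the cord and which serves as a model of multiple sclerosis. The third had EAE and received oral EHP-101 at a dose of 20 mg/kg, and is called treated in the text and EAE+EHP-101 in the plots. No genotype, transgene or vehicle is stated for any group, and the sources used here give no age, sex, mode of EAE induction, clinical score or sampling time. The design asks how the cord transcriptome changes in EAE and with the compound.

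The start regions of these genes are shown first, since this is where FOXJ1 and RFX factors act. RefSeq promoter windows of assembly GRCm38.p6, from 250 bases before to 50 bases after the start, were found for 32 of the 38 genes (33 windows). The letters GTTGCCA, which form one arm of the X-box read by RFX factors, were searched on both strands. They occurred in 8 of the 33 windows (24.2%) and in 4.38% of 32851 windows of all genes. The genes were Cfap44, Dnah10, Dnah7b, Drc1, Hydin, Lrrc23, Mlf1 and Tekt1. The letters TGTTTAC, a forkhead core of the kind that FOXJ1 binds, occurred in 3 windows (9.09%, against 3.65% of all), those of Ak7, Cfap43 and Mlf1. The full palindromic X-box was searched only in the strict form GTT-N-CC-NN-GG-N-AAC, where N is any letter. This form, on both strands and also where it overlaps the shorter letters, was in 0 of the 33 windows and in 0.451% of all. Looser forms were not searched. In Hydin and Cfap44, the letters up to and including the match nearest the start held both arms. They missed the strict form only by a T in place of the last fixed C of the first arm. A match is a description of letters and not a binding site. The 250 bases before the start are printed for 4 genes whose transcripts were called lower in EAE or treated cord, and for Mlf1, whose window held both sets of letters. All are on the plus strand, at chr8:110266727-110266976 (Hydin), chr16:44394549-44394798 (Cfap44), chr5:30281143-30281392 (Drc1), chr12:105705732-105705981 (Ak7) and chr3:67373847-67374096 (Mlf1). Capitals mark the matches, which read TGGCAAC where GTTGCCA lies on the other strand.
Hydin: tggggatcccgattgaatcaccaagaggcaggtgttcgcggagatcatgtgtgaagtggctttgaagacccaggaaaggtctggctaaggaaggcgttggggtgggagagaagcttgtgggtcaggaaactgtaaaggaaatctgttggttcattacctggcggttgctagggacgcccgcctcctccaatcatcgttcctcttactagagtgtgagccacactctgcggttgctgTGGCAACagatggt
Cfap44: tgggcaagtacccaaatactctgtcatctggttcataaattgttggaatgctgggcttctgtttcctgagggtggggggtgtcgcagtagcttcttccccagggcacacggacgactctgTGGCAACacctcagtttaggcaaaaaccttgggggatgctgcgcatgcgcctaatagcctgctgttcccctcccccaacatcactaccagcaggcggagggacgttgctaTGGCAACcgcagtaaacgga
Drc1: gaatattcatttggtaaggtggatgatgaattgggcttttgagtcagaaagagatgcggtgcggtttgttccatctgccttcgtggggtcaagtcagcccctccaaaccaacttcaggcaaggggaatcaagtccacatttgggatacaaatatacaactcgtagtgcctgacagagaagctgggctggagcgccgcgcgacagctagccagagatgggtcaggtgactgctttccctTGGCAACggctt
Ak7: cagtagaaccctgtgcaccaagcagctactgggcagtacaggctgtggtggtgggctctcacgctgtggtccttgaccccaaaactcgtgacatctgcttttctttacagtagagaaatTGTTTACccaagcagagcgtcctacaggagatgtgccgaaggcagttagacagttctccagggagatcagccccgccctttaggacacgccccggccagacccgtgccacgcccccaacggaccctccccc
Mlf1: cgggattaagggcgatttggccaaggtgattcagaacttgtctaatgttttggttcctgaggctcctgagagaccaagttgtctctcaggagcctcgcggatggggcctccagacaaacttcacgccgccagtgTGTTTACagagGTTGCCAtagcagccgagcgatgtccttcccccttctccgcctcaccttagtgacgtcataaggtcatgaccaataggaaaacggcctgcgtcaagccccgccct
The match nearest the start began at position -14 in Hydin, -12 in Drc1 and -20 in Cfap44, which had another at -130. In Mlf1 both sets of letters lay close together, at -116 and -105. The Ak7 match lay at -131. The Drc1 window belongs to a RefSeq start upstream of the gene model in the deposited table, which begins at 30341663.

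Levels are CPM, read counts relative to the scaled size of each library, and libraries held 30448507 to 32661741 counts. Levels were low, and members held between 76 and 10009 counts over the 9 libraries. Since whole tissue was sequenced, fewer ciliated cells and less RNA per cell cannot be told apart. Per kilobase of exon, Foxj1 had the highest mean Control level of the members (12.9 CPM per kb), ahead of Cfap69 (7.72), Rsph1 (3.65), Drc1 (3.28), Dynlrb2 (3.18) and Ccdc39 (3.04). Dnah7a (0.0906), Spag17 (0.137) and Dnah3 (0.180) were lowest. Control replicate 2 stood apart for these genes. It was the highest of the 9 libraries for 27 of the 37 tested members (73.0%), against 14.0% of all genes tested. The members together summed to 195, 281 and 207 CPM in Control replicates 1, 2 and 3. They summed to 188, 154 and 160 CPM in EAE and 151, 175 and 179 CPM in treated cord. Every EAE and treated sum was below every Control sum, with a small gap between the replicates 1 of Control and EAE. The counts of members called are therefore also given without that library.

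EAE against Control was tested with edgeR's quasi-likelihood model over all genes, and a gene was called at a Benjamini-Hochberg adjusted p under 0.05. Motile cilia transcripts were lower in EAE. Of the 37 members 16 were called lower (43.2%) and 0 higher, while 16.7% of all tested genes were called lower and 20.2% higher. The list was chosen with earlier results of these data known, so its excess over all genes is described and was not tested. Among all genes whose mean level lay within the members' range, 12.9% were called lower. The members' median log2 fold change was -0.55, against 0.01 for all genes, and 36 of the 37 lay below 0. In 14 members all 3 EAE libraries were lower than all 3 Controls, which was so for 21.1% of all genes. In 1 member, Foxj1, all 3 were higher (25.6% of all genes). Leaving out 1 library at a time gave between 5 and 23 of the 37 called lower. There were 6 without EAE replicate 2 (16.2%, against 13.2% of all genes) and 23 without Control replicate 1 (62.2%, against 16.7%). Without Control replicate 2 there were 5 (13.5%), a share no higher than the 15.7% of all genes called lower in that fit, and the members' median was -0.39 with 33 of 37 below 0. The median of all genes in that fit was -0.03. The excess of calls over all genes was thus absent without that library, and small without EAE replicate 2. The same 5 genes were called whichever library was left out: Dnah5, Dnah12, Cfap69, Ccdc39 and Cfap44. The share of all genes that stayed called under that rule was not counted, so an excess of members is not shown.

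Outer arm dynein heavy chains, the motors that set beat frequency, had 2 of 3 members lower. Dnah5 (gene 110082, chromosome 15 from 28203766 to 28472045 in mm10, 79 exon blocks) encodes a core outer arm motor whose loss causes primary ciliary dyskinesia. It stood at 6.21, 8.83 and 7.40 CPM in Control, at 4.35, 3.30 and 4.18 CPM in EAE, and at 4.83, 5.08 and 3.91 CPM in treated cord. All Control libraries lay above all others. The fall in EAE was 1.90-fold (log2 -0.92, SE 0.17, adjusted p = 0.00146). Dnah11, a motor of the proximal axoneme, stood at 2.23, 5.47 and 3.15 CPM in Control, 1.84, 1.57 and 1.996 CPM in EAE, and 1.22, 1.197 and 1.34 CPM in treated cord. The 3 groups did not overlap, and the treated libraries were the lowest. Its fall in EAE was 2.01-fold (log2 -1.005, SE 0.28, adjusted p = 0.0161), and the adjusted p was 0.0514 with Control replicate 2 left out and 0.0541 with EAE replicate 2 left out. Dnah9, the distal outer arm motor, had 5.78, 10.4 and 6.68 CPM in Control, 6.16, 4.42 and 5.93 CPM in EAE, and 4.77, 4.95 and 5.32 CPM in treated cord. EAE replicates 1 and 3 lay within the Control range, and the difference did not pass (log2 -0.47, SE 0.20, adjusted p = 0.0913).

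Inner arm heavy chains, which shape the waveform of the beat, had 4 of 8 members lower. Dnah12 (gene 110083, chromosome 14 from 26693446 to 26891634, 65 exon blocks) had the largest fold change of all members. Its levels were 2.66, 6.61 and 4.19 CPM in Control, 1.78, 0.705 and 1.37 CPM in EAE, and 0.960, 1.003 and 1.28 CPM in treated cord. Even the lowest Control exceeded the highest EAE library, and the fall was 3.47-fold (log2 -1.80, SE 0.35, adjusted p = 0.00249). Dnah6 was at 3.58, 9.84 and 5.18 CPM in Control, 3.93, 1.63 and 2.06 CPM in EAE and 1.63, 2.59 and 2.72 CPM in treated cord. EAE replicate 1 exceeded Control replicate 1, so the groups overlapped. The call (log2 -1.28, SE 0.39, adjusted p = 0.0229) ended without Control replicate 2 (adjusted p = 0.109), EAE replicate 2 (0.0799) or EAE replicate 3 (0.0690). Dnah10 (log2 -0.75, SE 0.24, adjusted p = 0.0322) and Dnah3 (log2 -0.63, SE 0.23, adjusted p = 0.04996) were also called. The call of Dnah10 ended without Control replicate 2, EAE replicate 2 or EAE replicate 3 (adjusted p 0.0753 to 0.129). That of Dnah3 ended without Control replicate 2, any EAE library or any treated library (0.0544 to 0.185).

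Dnah7a and Dnah7b, similar inner arm genes of chromosome 1, share part of their sequence and cannot be fully separated. Of the 50-base windows along their GENCODE M21 exons, 38.6% and 29.95% also occur in each other or in another gene, mostly Dnah7c. How the authors treated such reads is not stated, so both levels are uncertain. Dnah7a stood at 0.821, 1.202 and 1.31 CPM in Control, 1.03, 0.641 and 1.22 CPM in EAE and 0.832, 0.841 and 1.02 CPM in treated cord. Dnah7b stood at 11.8, 11.3 and 11.99 CPM in Control, 11.7, 7.94 and 10.2 CPM in EAE and 10.8, 9.99 and 12.1 CPM in treated cord. Groups overlapped for both, and neither passed (log2 -0.21, SE 0.27, adjusted p = 0.584 for Dnah7a, and log2 -0.23, SE 0.13, adjusted p = 0.188 for Dnah7b). Every other member shared at most 1.63% of its windows with another gene.

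The central apparatus, the pair of microtubules and projections that regulate the dyneins, had 4 of 6 tested members lower (16.7% of all genes). Hydin (gene 244653, chromosome 8 from 110266977 to 110610253, 87 exon blocks) encodes a central pair projection protein, and its loss causes hydrocephalus in mice. It stood at 3.12, 6.07 and 3.01 CPM in Control, 2.36, 1.28 and 1.72 CPM in EAE, and 1.28, 1.33 and 2.08 CPM in treated cord. Control did not overlap either other group, and the fall in EAE was 2.28-fold (log2 -1.19, SE 0.32, adjusted p = 0.0126). Cfap69, linked to the central pair of cilia and sperm flagella, had the smallest p of the central apparatus members. Its levels were 25.9, 25.8 and 23.5 CPM in Control, 20.6, 16.5 and 18.7 CPM in EAE and 18.2, 20.7 and 19.2 CPM in treated cord. Control replicate 2 did not stand out here, and the fall was small, 1.34-fold (log2 -0.43, SE 0.09, adjusted p = 0.0038). Spag17, a central pair projection gene, had 0.788, 1.36 and 1.08 CPM in Control, 0.483, 0.416 and 0.655 CPM in EAE and 0.640, 0.517 and 0.993 CPM in treated cord. EAE lay wholly below Control while treated replicate 3 lay among the Controls (EAE log2 -1.05, SE 0.32, adjusted p = 0.0232). Spef2 was called at log2 -0.65 (SE 0.23, adjusted p = 0.0415). Without Control replicate 2 the adjusted p was 0.0525 for Hydin, 0.0843 for Spag17 and 0.105 for Spef2. The Spag17 call also ended without EAE replicate 1 (0.0719) or EAE replicate 2 (0.0796), and that of Spef2 without Control replicate 3, any EAE library, or treated replicate 2 or 3 (0.0524 to 0.124). Untested Spag16 had 0.296, 0.633 and 0.524 CPM in Control, 0.151, 0.224 and 0.281 CPM in EAE and 0.064, 0.129 and 0.128 CPM in treated cord, in 3 groups that did not overlap.

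Radial spokes link the central apparatus to the dynein arms. Of 4 members 1 was called lower (16.7% of all genes), Rsph4a, a spoke head gene (gene 212892). It stood at 4.37, 6.14 and 6.75 CPM in Control, 4.65, 2.63 and 2.59 CPM in EAE and 2.56, 2.68 and 3.23 CPM in treated cord. EAE replicate 1 lay within the Control range and the other EAE libraries below it (log2 -0.80, SE 0.24, adjusted p = 0.0206). The call ended without Control replicate 2 (adjusted p = 0.0573), Control replicate 3 (0.0507), EAE replicate 2 (0.0705) or EAE replicate 3 (0.0661). Rsph1, another spoke head gene, had 3.12, 4.71 and 4.91 CPM in Control, 3.96, 3.01 and 2.78 CPM in EAE and 2.69, 4.11 and 3.68 CPM in treated cord. The groups overlapped and it was not called (log2 -0.39, SE 0.22, adjusted p = 0.188).

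Genes of the nexin-dynein regulatory complex, the axonemal ruler and the dynein tether had 4 of 5 members lower (16.7% of all genes). Ccdc39, which with Ccdc40 forms the ruler that sets the axonemal repeat, stood at 10.9, 12.1 and 9.89 CPM in Control. It was at 8.12, 7.88 and 8.55 CPM in EAE and 8.73, 9.05 and 10.02 CPM in treated cord. EAE lay below Control and treated cord reached into it (EAE log2 -0.43, SE 0.10, adjusted p = 0.00782). Cfap44, which tethers an inner arm dynein, had 7.39, 12.6 and 8.85 CPM in Control, 7.07, 4.36 and 5.21 CPM in EAE and 6.30, 6.34 and 7.78 CPM in treated cord. Its fall in EAE was 1.73-fold (log2 -0.79, SE 0.21, adjusted p = 0.0132), with no overlap. Drc1, a core subunit of the regulatory complex, had 6.47, 8.67 and 7.14 CPM in Control, 6.01, 4.84 and 5.11 CPM in EAE and 5.60, 4.62 and 5.12 CPM in treated cord. Neither EAE nor treated cord overlapped Control (EAE log2 -0.48, SE 0.14, adjusted p = 0.0197). Ccdc40 moved by log2 -0.47 (SE 0.16, adjusted p = 0.0333). Drc1 lost its call when Control replicate 2 was left out (adjusted p = 0.0639), as it did for EAE replicate 2 (0.0604). That of Ccdc40 ended without Control replicate 2 or 3 or any EAE library (0.0586 to 0.0948).

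Of the other groups of members, 0 of 3 inner proteins of the doublet microtubules were called (16.7% of all genes lower and 20.2% higher). Tekt1, Tekt4 and Cfap52 had log2 fold changes of -0.13, -0.22 and -0.11. Of 7 other cilia-linked members 1 was called lower (16.7% of all genes). Fam216b, whose function is little described, stood at 2.50, 4.56 and 4.36 CPM in Control, 2.33, 1.03 and 1.59 CPM in EAE and 0.768, 1.71 and 1.51 CPM in treated cord. Both disease groups lay below Control, and the EAE fall was 2.30-fold (log2 -1.202, SE 0.34, adjusted p = 0.0161). Leaving out Control replicate 2 raised the adjusted p to 0.0589, and leaving out EAE replicate 2 raised it to 0.0571. Ak7, an adenylate kinase of cilia, had 4.83, 8.19 and 5.27 CPM in Control, 5.10, 2.59 and 3.12 CPM in EAE and 1.95, 3.72 and 3.01 CPM in treated cord. EAE and Control overlapped (log2 -0.76, SE 0.29, adjusted p = 0.0614), while all treated libraries were below Control. The members not yet given were not called in EAE either. They were the inner arm heavy chains Dnah1 (log2 -0.36) and Dnah2 (-0.63, adjusted p = 0.0506), the central apparatus gene Cfap46 (-0.55), the spoke genes Cfap61 (-0.45) and Lrrc23 (-0.54), the tether gene Cfap43 (-0.58, adjusted p = 0.0608), and the cilia-linked genes Cfap65 (-0.72, adjusted p = 0.0582) and Cfap70 (-0.30). Cfap54, a central apparatus gene whose levels are given with treated cord, was not called either (-0.72, adjusted p = 0.0549). The deposited models of Cfap46 and Cfap61 hold 15 and 7 exon blocks over 1667 and 1561 bases, and so may cover the genes in part.

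The short genes Tmem212, Mlf1 and Dynlrb2 were not called in EAE. Tmem212 had 1.02, 2.50 and 1.83 CPM in Control, 1.57, 0.609 and 0.655 CPM in EAE and 0.288, 1.13 and 1.09 CPM in treated cord. Mlf1 had 1.22, 2.31 and 2.39 CPM in Control, 1.57, 1.38 and 1.22 CPM in EAE and 0.800, 1.42 and 1.22 CPM in treated cord. Dynlrb2, a dynein light chain gene, had 1.45, 1.77 and 1.70 CPM in Control, 1.51, 1.51 and 1.28 CPM in EAE and 0.608, 1.62 and 1.09 CPM in treated cord. EAE libraries overlapped Control in each, and the differences did not pass (log2 -0.91, -0.51 and -0.20 for Tmem212, Mlf1 and Dynlrb2, adjusted p = 0.160, 0.181 and 0.613).

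Foxj1, the master regulator of motile ciliogenesis (gene 15223, chromosome 11 from 116330704 to 116335354), was not lower in EAE. It stood at 34.03, 35.9 and 30.01 CPM in Control, 36.9, 41.0 and 37.8 CPM in EAE and 31.2, 37.1 and 34.8 CPM in treated cord. Every EAE library was above every Control library, yet the difference did not pass (log2 0.21, SE 0.09, adjusted p = 0.0768). It was the only tested member with an EAE log2 fold change above 0. With the length trend of the libraries removed, as described next, the value was 0.07 (adjusted p = 0.519).

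**Figure D1:**
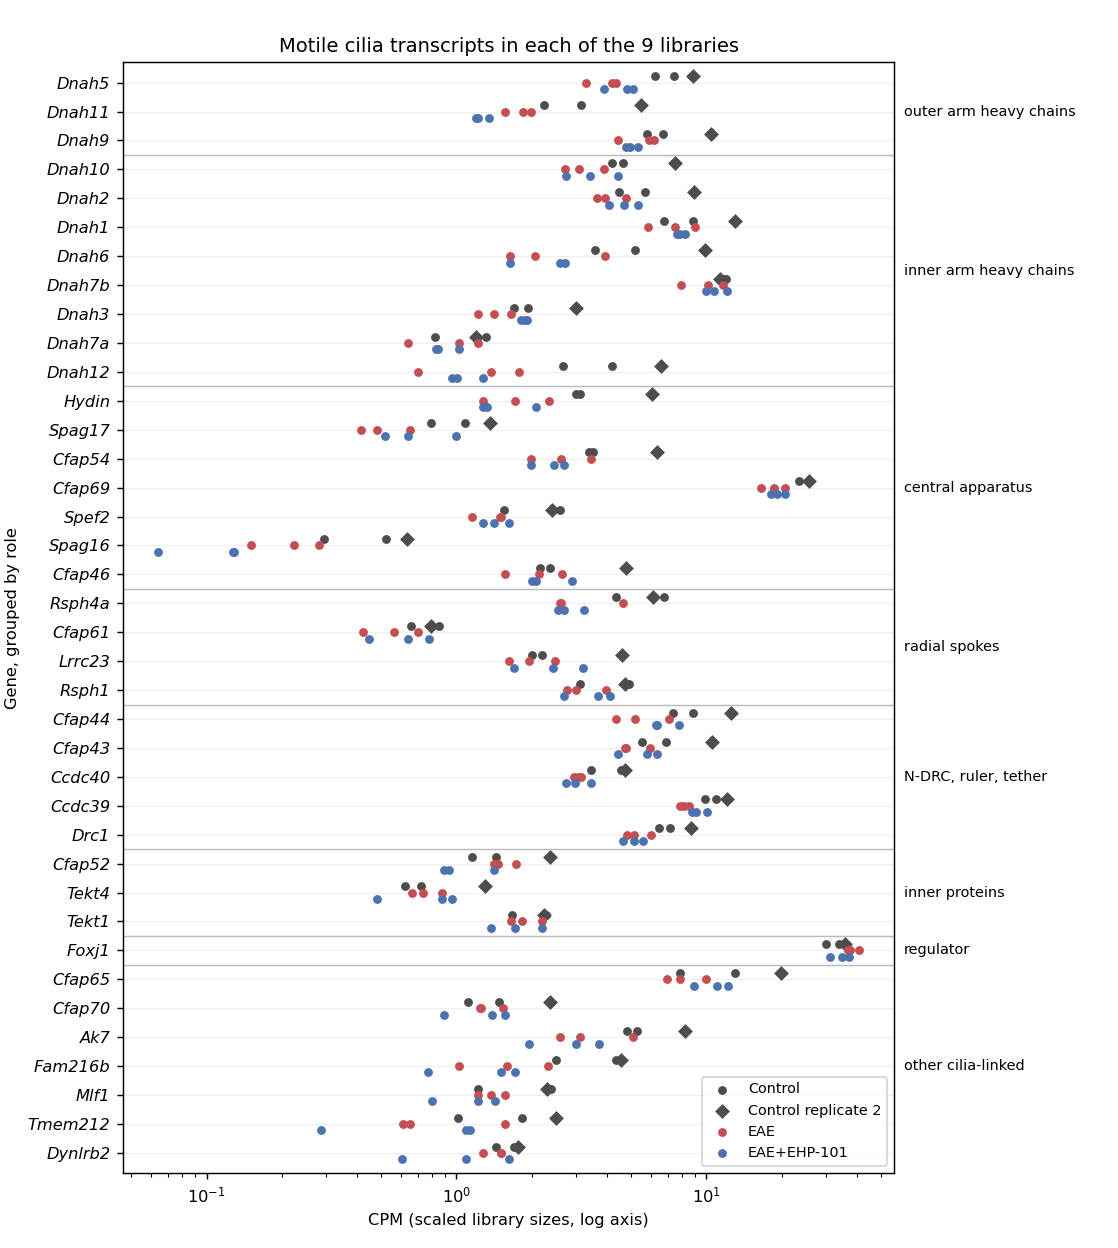
Level of each listed gene in the 9 libraries, as CPM on a log axis, grouped by role, with 1 point per library (Control grey, EAE red, EAE+EHP-101 blue, Control replicate 2 as a grey diamond). Control replicate 2 is the rightmost point for 28 of the 38 genes, and Foxj1 is the only one with all 3 EAE points to the right of all 3 Control points.

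Gene length was compared next because dynein genes are long and the libraries of this series differ in a trend with length. Across all genes tested, the Spearman correlation of a gene's length with its deviation from the mean was 0.244 to 0.410 in Control and -0.327 to -0.259 in EAE. In treated replicates 1, 2 and 3 it was -0.0300, -0.335 and -0.197, and the highest value, 0.410, was that of Control replicate 2. The trend thus moved with the group, and length cannot be told apart from the group by the design alone. Members ranged from 515 bases of exon (Dynlrb2) to 15783 (Hydin), and 17 tested members of 5000 bases or more are called long. They include all 11 heavy chains.

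As counted, the share called lower in EAE among long members was near that of all long genes, and the share among short members lay above that of all short genes. These shares are descriptions and were not tested against each other. Of the 17 long members 9 were called lower (52.9%), with a median log2 of -0.72. Of all 2798 long genes 46.9% were called lower, with a median of -0.21. Of the 20 short members 7 were called lower (35.0%), with a median of -0.46, against 10.7% and 0.05 for all 13951 short genes. Among the heavy chains alone it was 6 of 11 (54.5%), with a median of -0.63, where 69.3% of all 303 tested genes of 10000 bases or more were called lower (median -0.40). The heavy chains' share was thus below that of equally long genes, a length limit chosen after the values were seen. When Control replicate 2 was left out, the share called was 3 of 17 among long members (17.6%, against 43.0% of all long genes) and 2 of 20 among short members (all short genes 10.2%). The long members' share then lay below its background and the short members' share at it. The heavy chains had 2 of 11 called (18.2%, against 43.0% of all long genes). The medians in that fit were still further below 0 than those of all genes. They were -0.39 for long and -0.38 for short members, against -0.23 for all long and 0.02 for all short genes. A lower share called is thus not a smaller fall. The Spearman correlation of length with the EAE log2 fold change was -0.41 over the 37 members and -0.40 over all genes, both from the same libraries.

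Removing the length trend of each library, by an offset fitted over all genes, shifted the calls from long members to short ones. Of the 37 members 12 were then called lower and 0 higher, where 17.4% of all genes were called lower and 11.3% higher. Long members were called in 3 of 17 (17.6%, against 17.5% of all long genes), and short members in 9 of 20 (45.0%, against 17.4% of all short genes). The medians became -0.51 for long and -0.67 for short members, against -0.09 for all genes. The heavy chains had 2 of 11 called, Dnah5 (log2 -0.51, SE 0.16, adjusted p = 0.0280) and Dnah12 (log2 -1.50, SE 0.33, adjusted p = 0.00563), with a median of -0.29. The 26 other members had 10 called and a median of -0.65. The correlation with length became 0.30 over the members and 0.05 over all genes.

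Calls shared by both fits numbered 9: Dnah5, Dnah12, Cfap69, Spef2, Rsph4a, Drc1, Ccdc39, Cfap44 and Fam216b. The short genes Rsph1 (log2 -0.69, adjusted p = 0.0263), Ak7 (-0.84, 0.0393) and Mlf1 (-0.81, 0.0418) were not called as counted and were called with the trend removed. The calls of 7 members ended, with folds that stayed below 0. Spag17 moved from log2 -1.05 to -0.85 (adjusted p = 0.0590), Hydin from -1.19 to -0.77 (0.0634), Ccdc40 from -0.47 to -0.42 (0.0642) and Dnah6 from -1.28 to -0.93 (0.0736). Dnah11 moved from -1.005 to -0.62 (0.0964), Dnah10 from -0.75 to -0.36 (0.243) and Dnah3 from -0.63 to -0.29 (0.351). Dnah7a and Dnah7b then lay at log2 0.12 and 0.10, on the other side of 0, and were again not called. Without Control replicate 2 and with the trend removed, an alternative added after seeing the data, 5 members were called lower (13.5%, against 14.1% of all genes): Dnah12, Cfap69, Drc1, Ccdc39 and Fam216b. They were 1 of 17 long members and 4 of 20 short ones (14.3% of all long and 14.1% of all short genes), and the medians were -0.20 for long and -0.499 for short members, against -0.09 for all genes. Dnah12, Cfap69 and Ccdc39 were called in every alternative fit, at adjusted p up to 0.0282, 0.0119 and 0.0280. The share of all genes called in every fit was not counted.

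**Figure D2:**
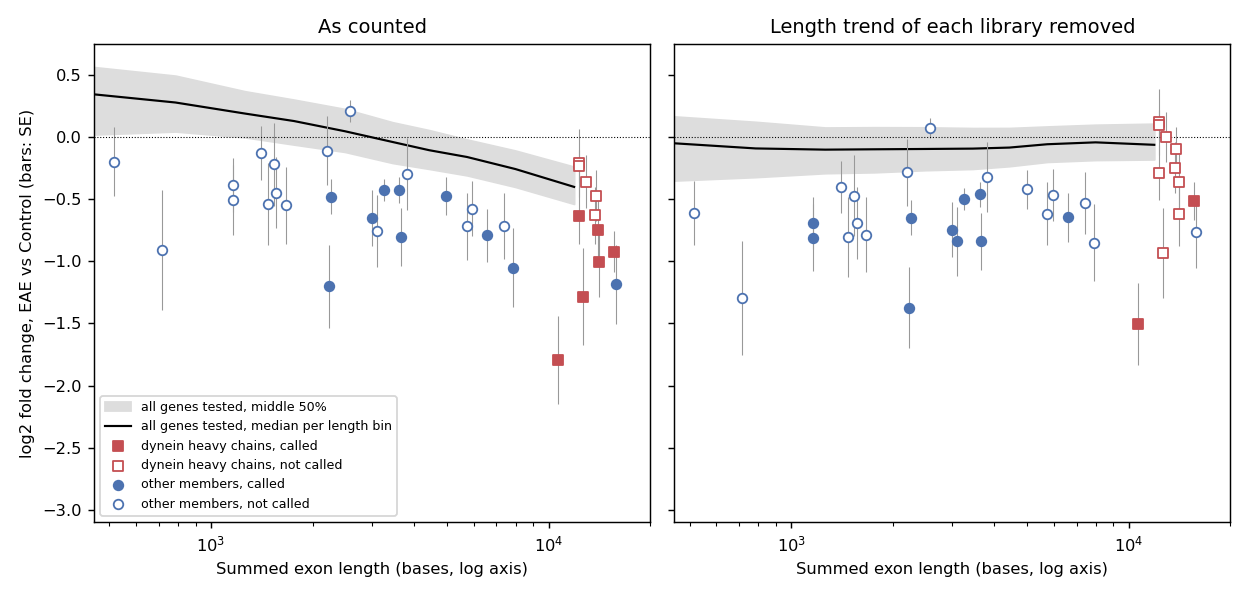
Log2 fold change of EAE against Control (vertical axis, bars SE) against summed exon length in bases (log axis) for the 37 tested members, as counted (left) and with the length trend of each library removed (right). The black line and grey band are the median and middle 50% of all tested genes by length. As counted the line falls with length and most members lie below it, while with the trend removed the line is flat and the median of the heavy chains (red squares, -0.29) lies nearer to it than that of the short members (-0.67), with the heavy chain Dnah12 the farthest at -1.50.

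**Figure D3:**
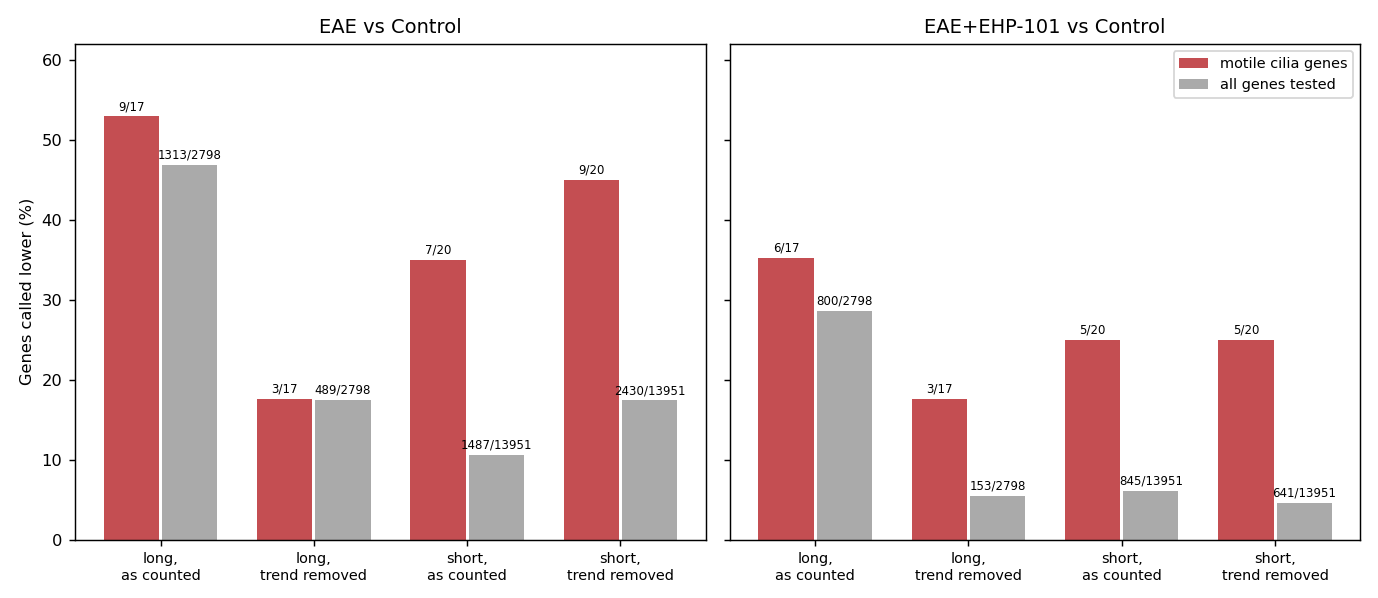
Share of genes called lower than Control (percent) among long (5000 bases or more) and short motile cilia genes (red) and among all tested genes of the same length class (grey), with the counts above the bars. In EAE the red and grey bars of long genes are close in both fits (52.9% and 46.9%, then 17.6% and 17.5%), and those of short genes are not. All 9 libraries are used here.

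Control replicate 2 took part in both length classes. It was the highest library for 15 of the 17 long members (88.2%) and 12 of the 20 short members (60.0%), against 29.4% of all long and 10.9% of all short genes. Long members summed to 85.1, 143 and 90.6 CPM in Control, 79.4, 56.1 and 63.0 CPM in EAE, and 65.6, 71.8 and 78.0 CPM in treated cord. Short members summed to 110, 138 and 116 CPM in Control, 108, 97.6 and 96.8 CPM in EAE, and 85.4, 103 and 101 CPM in treated cord. As counted, all Control sums were above all others in both classes, with the smallest gap in short members, between Control replicate 1 and EAE replicate 1. With the length trend removed, long members summed to 75.6, 123 and 84.4 CPM in Control, 84.2, 63.6 and 66.9 CPM in EAE, and 66.6, 76.3 and 80.1 CPM in treated cord. Control replicate 1 then lay below EAE replicate 1 and treated replicates 2 and 3, while the short members' sums again did not overlap.

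Treated mice were then compared with Control, which asks how far the cord with the compound still differed from healthy cord. Motile cilia transcripts were lower there too. Of the 37 members 11 were called lower (29.7%) and 0 higher, against 9.82% of all genes lower and 9.96% higher, and the median log2 fold change was -0.50. In 12 members, the 11 called and Dnah9, all treated libraries were below all Controls (17.5% of all genes). This comparison shares its Control libraries with that of EAE, so the 9 genes called in both are not independent evidence. Leaving out 1 library at a time gave 3 to 16 calls. There were 3 without Control replicate 2 (Dnah11, Dnah12 and Rsph4a, 8.11%, near the 7.75% of all genes in that fit). Without treated replicate 2 there were 3 (8.11%, against 2.33% of all genes), and without treated replicate 3 there were 5 (13.5%, against 3.50%). Dnah11 and Dnah12 were called whichever library was left out, and the share of all genes for which this held was not counted.

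The largest falls in treated cord were those of Dnah12, Dnah11 and Fam216b. Dnah12 fell by 4.15-fold (log2 -2.05, SE 0.36, adjusted p = 0.00639), and Dnah11 by 2.89-fold (log2 -1.53, SE 0.29, adjusted p = 0.00814). Fam216b (log2 -1.52, SE 0.35, adjusted p = 0.0144), Dnah6 (-1.42, SE 0.39, adjusted p = 0.0286) and Hydin (-1.38, SE 0.32, adjusted p = 0.0154) followed. Rsph4a was lower by 2.03-fold (log2 -1.02, SE 0.24, adjusted p = 0.0159). Dnah5 (log2 -0.70), Drc1 (-0.54) and Cfap69 (-0.37) passed with smaller changes (adjusted p = 0.0156, 0.0236 and 0.0184). Called in treated and not in EAE cord were Ak7 (log2 -1.08, SE 0.30, adjusted p = 0.0288) and Cfap54, a central apparatus gene at 3.38, 6.36 and 3.51 CPM in Control, 3.44, 1.99 and 2.62 CPM in EAE and 2.69, 2.46 and 1.99 CPM in treated cord (log2 -0.89, SE 0.27, adjusted p = 0.0403). Neither gene was called between treated and EAE cord (log2 -0.32 and -0.18, adjusted p = 0.675 and 0.807).

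Several of these calls rested on single libraries. Without Control replicate 2 the adjusted p was 0.0501 for Fam216b, 0.0502 for Hydin, 0.0504 for Cfap69, 0.0529 for Dnah5, 0.0757 for Drc1, 0.105 for Ak7, 0.109 for Dnah6 and 0.140 for Cfap54. Without treated replicate 2 it was 0.0511 for Cfap69, 0.0517 for Dnah5, 0.0585 for Ak7, 0.0727 for Rsph4a, 0.0769 for Hydin, 0.0897 for Dnah6, 0.105 for Drc1 and 0.118 for Cfap54. Without treated replicate 3 the calls of Cfap69, Dnah5, Dnah6, Drc1, Ak7 and Cfap54 ended (0.0648 to 0.135). The calls of Dnah6 and Ak7 ended without treated replicate 1 (0.0631 and 0.0622), and that of Cfap54 without EAE replicate 3 (0.0506). With the length trend removed 8 members were called lower (4.74% of all genes): Dnah11, Dnah12, Hydin, Cfap69, Rsph4a, Drc1, Ak7 and Fam216b. Long members had 6 of 17 called as counted and 3 of 17 with the trend removed (28.6% and 5.47% of all long genes), and short members 5 of 20 in both fits (6.06% and 4.59% of all short genes). Without Control replicate 2 long members had 2 of 17 called and short members 1 of 20 (21.4% of all long and 5.01% of all short genes), and with the trend removed as well 1 of the 37 was called (2.70%, against 2.30% of all genes).

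Treated mice were last compared with untreated EAE mice, to see which transcripts the compound moved. For 0 of the 37 members was a difference called by edgeR, and 0 passed an unadjusted p of 0.05. DESeq2's Wald test likewise called 0 of 38, with 0 at an unadjusted p under 0.05, where edgeR called 4.81% of all genes lower and 0.43% higher. The median log2 fold change of the members was 0.00, within a range from -0.52 (Dnah11, SE 0.31, adjusted p = 0.457) to 0.46 (Spag17, SE 0.33, adjusted p = 0.558). These standard errors leave room for changes in single genes, so equal levels are not shown. In Dnah3 and Ccdc39 all treated libraries lay above all EAE libraries (10.7% of all genes), and in Dnah11 and Cfap52 all lay below (16.9% of all genes). With the length trend removed 0 were called (4.16% of all genes lower and 0.836% higher) and 2 had an unadjusted p under 0.05. Foxj1 had log2 -0.16 (SE 0.09, adjusted p = 0.389).

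**Figure D4:**
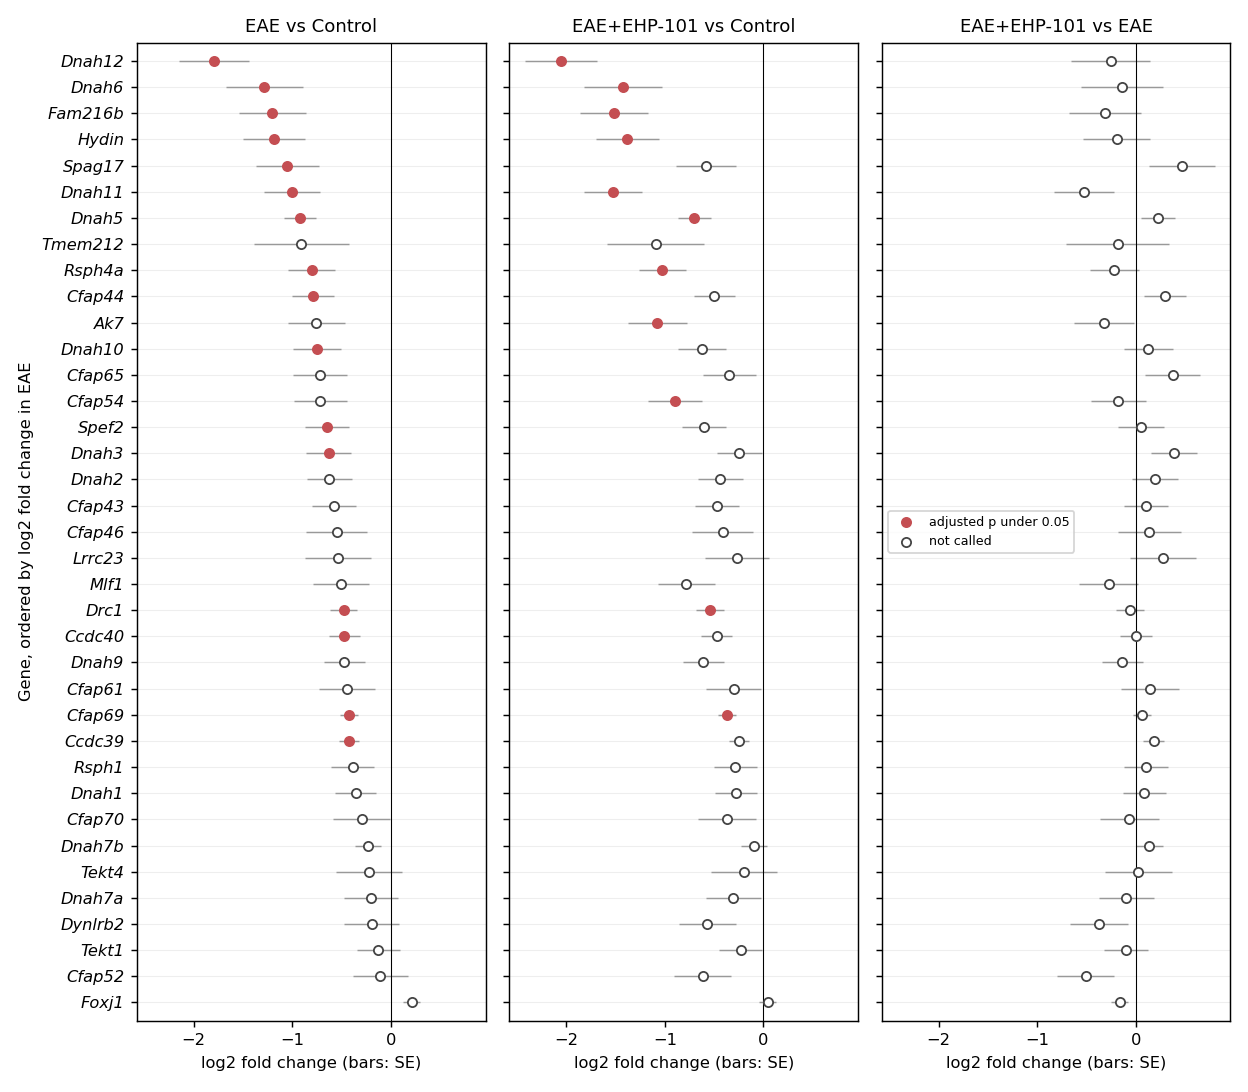
Log2 fold changes with SE bars of the 37 tested members in the 3 comparisons, ordered by the value in EAE against Control, with filled red points for an adjusted p under 0.05. Most points of both comparisons with Control lie left of 0, led by Dnah12 at -1.80 and -2.05, and the points of treated against EAE scatter around 0 with none filled.

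Further genes of ciliogenesis and the axoneme were read from lists outside the members. Of 12 tested regulators of ciliogenesis, 1 rose and 1 fell in EAE (20.2% and 16.7% of all genes). The rise was that of E2f5 (log2 0.39, SE 0.13, adjusted p = 0.0292), which encodes a factor for multiciliated cells. Rfx3 fell slightly (log2 -0.23, SE 0.06, adjusted p = 0.0147) and was also lower in treated cord (-0.23, adjusted p = 0.0326), as were 9.82% of all genes. The E2f5 call ended without Control replicate 1 or 2 or any EAE library (adjusted p 0.0598 to 0.137), the treated call of Rfx3 ended without treated replicate 2 or 3 (0.107 and 0.102), and both EAE calls ended with the length trend removed (0.308 for E2f5 and 0.861 for Rfx3 in EAE). Among 18 dynein assembly and docking genes 1 fell in EAE (16.7% of all genes), the assembly factor gene Spag1 (log2 -0.31, SE 0.09, adjusted p = 0.0180). In treated cord 1 fell (9.82% of all genes), Cfap300 (log2 -0.37, SE 0.10, adjusted p = 0.0278), a call that ended without Control replicate 1 or 2 or any treated library (0.0571 to 0.0864).

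Other axonemal dynein chains fell in 3 of 10 cases in EAE (16.7% of all genes) and 2 of 10 in treated cord (9.82% of all genes), and in 2 and 1 without Control replicate 2. Dnai4 (Wdr78 in the table) was lower in both (log2 -0.38, SE 0.09, adjusted p = 0.00661, and -0.49, SE 0.09, adjusted p = 0.00711) and stayed called whichever library was left out. Dnal1, a light chain gene, was lower in EAE (log2 -0.30, SE 0.08, adjusted p = 0.0105), though not with the length trend removed (0.0700). Dnai3 (Wdr63) was lower in EAE (log2 -0.94, SE 0.33, adjusted p = 0.0421) and treated cord (-1.30, SE 0.34, adjusted p = 0.0239). Its calls ended without Control replicate 2 (0.176 and 0.0855) and without several other libraries.

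Of 58 other axonemal structure genes, 5 were higher (8.62%, against 20.2% of all genes) and 6 lower (10.3%, against 16.7%) in EAE. It was 1 higher and 4 lower without Control replicate 2, and without EAE replicate 2 it was 0 and 4. Leaving out Control replicate 1 gave 2 and 10. Higher calls numbered 3 without Control replicate 3 and 2 without EAE replicate 1. Iqca (log2 -1.17, SE 0.26, adjusted p = 0.00521) and Spata18 (-1.81, SE 0.46, adjusted p = 0.0106) led the falls, and Tppp3 (0.28, SE 0.07, adjusted p = 0.00958) led the rises. The call of Tppp3 ended without Control replicate 2 (0.0657), without EAE replicate 2 (0.0803), and with the length trend removed (0.634). In that fit 0 of the 58 rose (11.3% of all genes) and 11 fell (19.0%, against 17.4% of all genes). In treated cord 3 were higher and 5 lower (9.96% and 9.82% of all genes). The falls were led by Ccdc170 (log2 -2.18, SE 0.42, adjusted p = 0.00833) and Iqca (-1.26, SE 0.27, adjusted p = 0.0112). With 58 to 61 genes then tested, these counts were 0 and 4 without Control replicate 2, 2 and 13 without Control replicate 1, 0 and 3 without treated replicate 2, and 1 and 3 without treated replicate 3. With the trend removed they were 0 and 6 (3.56% and 4.74% of all genes).

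Intraflagellar transport and BBSome genes serve primary cilia, which neurons and glia carry, as well as motile ones. Of 32 tested, 9 fell and 1 rose in EAE (16.7% and 20.2% of all genes), and 4 fell in treated cord (9.82% of all genes). Those lower in EAE numbered 4 without EAE replicate 1 and 14 without Control replicate 3. In treated cord 1 was lower without treated replicate 2 or 3, and 0 with the length trend removed. Dync2h1, the heavy chain of the retrograde transport motor, fell (log2 -0.67, SE 0.09, adjusted p = 0.000251), as did Kif3a, a subunit of the anterograde motor (-0.38, SE 0.06, adjusted p = 0.000594). The rise was that of Dync2li1 (log2 0.23, SE 0.07, adjusted p = 0.0312), whose call ended when any 1 of 6 libraries was left out (0.0530 to 0.198). With the length trend removed 15 of the 32 were called lower in EAE (46.9%, against 17.4% of all genes) and 0 higher (11.3% of all genes). For comparison, 9 genes of cytoplasmic dynein 1, which works outside cilia, had 1 higher and 2 lower in EAE (20.2% and 16.7% of all genes). The higher gene was Dynlrb1 (log2 0.25). The lower ones were Dync1li1 (-0.22) and the heavy chain gene Dync1h1 (-0.40, SE 0.14, adjusted p = 0.0469). All 3 calls ended without several of the libraries, among them EAE replicate 2 (0.150, 0.101 and 0.119), and Dync1h1 lay at -0.01 with the trend removed. For treated against EAE 0 genes of all these lists were called (4.81% of all genes lower and 0.43% higher).

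Markers of the cells that could carry the transcripts did not all move with the cilia genes. Of 7 ependymal markers that are not cilia parts, 3 rose and 1 fell in EAE (20.2% and 16.7% of all genes), and 2 and 0 without Control replicate 2. Rarres2, which encodes chemerin and is expressed by other cells too, rose (log2 1.199, SE 0.21, adjusted p = 0.00144), as did Mia (1.01, SE 0.22, adjusted p = 0.00480). The rise of Cd24a (log2 0.40, SE 0.14, adjusted p = 0.0411) lost its call with any 1 of 7 libraries left out, and with the length trend removed (0.330). Cdhr3, a cadherin gene of ciliated cells, fell (log2 -1.03, SE 0.27, adjusted p = 0.0124), a call that ended without Control replicate 2 (0.0519). In treated cord Rarres2 and Mia were lower than in EAE (log2 -0.97, adjusted p = 0.0213, and -1.08, adjusted p = 0.0171), as were 4.81% of all genes. Against Control 0 of the 7 were called (9.96% of all genes higher and 9.82% lower). Since 2 of the 7 had an unadjusted edgeR p under 0.05 there, equal levels are not shown. The calls of Rarres2 and Mia against EAE ended without EAE replicate 2 (0.0957 and 0.0799). That of Rarres2 also ended without EAE replicate 1 (0.0809), and that of Mia without treated replicate 1 or 3 (0.0633 and 0.0510). The 7 markers summed to 79.2 to 92.2 CPM in Control, 96.0 to 114 CPM in EAE and 92.9 to 106 CPM in treated cord, so their sum did not fall. The choroid plexus, which carries cilia as well, was represented by 7 genes that summed to between 9.16 and 13.3 CPM in all libraries. Of these 5 were tested and 0 called in EAE or treated cord, and the others, Kcnj13 and Otx2, fell under the filter.

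The make-up of the cord RNA changed at the same time. Microglia and macrophage markers, 5 of 5 higher in EAE, summed to 177 to 218 CPM in Control, 839 to 1133 CPM in EAE and 245 to 399 CPM in treated cord. The 4 neuron markers summed to 4067 to 4394 CPM in Control, 3515 to 3705 CPM in EAE and 3653 to 3852 CPM in treated cord. Astrocyte markers summed to 5519 to 6977 CPM, 7468 to 9334 CPM and 6382 to 6830 CPM in the same order. The part of these shifts in the lower share of cilia transcripts was not tested.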

How the data were processed

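Spinal cord RNA of 9 C57BL/6 mice (3 Control, 3 EAE, 3 EAE+EHP-101) was read as poly-A selected stranded libraries, single-end, per the labels' protocols. The authors deposited raw read counts per gene with gene lengths. Per the submitters' processing notes, the tools were DESeq2 1.20.0, featureCounts 1.6.1, HISAT2 2.1.0 and Trimmomatic 0.36 with mm10. The strand setting and the treatment of multiply mapped reads are not stated.

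In R 4.3.3, filterByExpr, TMM scaling and a quasi-likelihood fit of edgeR 4.0.16 with 1 mean per group over all 9 libraries gave p-values, adjusted over 16749 genes. These p-values set a group difference against the spread between the libraries within groups, moderated over genes. SE is the log2 fold change over the root of F. The length trend was a loess curve (span 0.5) of each library's log2 CPM deviation on log2 length, used as an offset. Alternatives were DESeq2 1.42.0, its size factors, other filters, the 2 groups alone, a replicate block and each library left out. The script was tested on simulated data.

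The members and lists were chosen with earlier results of these data known. Named with all values were members called in a contrast (up to 12 each) and 11 fixed ones, and of other lists up to 2 called genes per direction and contrast. A gene this rule selects is not reported here.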

Additional observations from a re-analysis of the deposited data

How the results depend on the processing

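In all alternatives tried, 0 members were called higher against Control and 0 were called in treated against EAE. Of the 38 listed genes 5 to 24 were called lower in EAE with 1 library left out (5 to 23 of the 37 tested members). They numbered 8 with the replicate block and the length trend removed, and 5 without Control replicate 2 with the length trend removed. For treated against Control they numbered 3 to 16 with 1 library left out, 7 with the replicate block, 6 with the block and the length trend removed, and 1 without Control replicate 2 with the length trend removed. The block gave 12 members in EAE. Same-numbered libraries of different groups had correlations of deviations from -0.19 to 0.12, so the numbers were not taken as pairs. DESeq2's Wald test called 19 and 13 members lower, and no filter gave 20 and 12. In either direction, EAE and treated cord against Control gave 6191 and 3314 calls over all genes in the main fit. The Wald test gave 6103 and 3657, and no filter 6011 and 3065. The block gave 5345 and 2272, and 4023 and 1009 with the length trend removed. With 1 library left out the calls ran from 4378 to 7095 and from 629 to 3739. Shares called lower in the block, Wald and unfiltered fits were not counted for all genes. Calls over all genes for treated against Control went from 3314 to 1391 with the length trend removed, and EAE calls from 3391 higher and 2800 lower to 1887 and 2919. Of 468 alternative values of 26 named members per comparison, 7 (EAE against Control) and 11 (treated against Control) had the opposite sign, all for members not called in that comparison. Levels near 1 CPM rest on few counts, so that depth limits Spag17, Tekt4, Cfap61 and Dnah7a. The same holds in EAE or treated cord for Dnah12, which had the largest folds, and for Dnah11, Fam216b, Tmem212, Mlf1 and Dynlrb2.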
